A study of Homo sapiens with 18 samples.

Results

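The clustered histone genes are the genes for histones H1, H2A, H2B, H3 and H4 that lie side by side in the genome, and they were taken as every gene of the table whose name begins with HIST1H, HIST2H, HIST3H or HIST4H. There were 87 such genes among 58302 in all, under 86 names, because HIST1H3D appears with a pair of identifiers. Of the 87, 16 are pseudogenes. They lie outside the measured genes defined below, but count in the totals by type and by cluster. They were measured in 18 libraries of polyA-selected RNA, 3 from each of 6 groups. TPC1, a cell line from a human papillary thyroid carcinoma with unedited Dicer1, was left non-transfected (NT) or received either a negative control siRNA (NC) or the siRNA against Dicer1 (siDicer). D11, a Dicer1 (+/-) line made from TPC1 with CRISPR-Cas9 and grown from 1 edited cell, was treated in the same 3 ways. Both siRNAs were given at 5 nM with a lipid reagent, and the RNA was collected on day 4. For each line, NT and NC together served as the control group, with 6 libraries. Because D11 is a single clone, its Dicer1 genotype cannot be told apart from other differences between clones. The study states that its experiments were repeated independently, and the labels do not say whether these replicates were separate cultures, so the p-values measure the spread between these libraries, which may be technical.

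Cells make most of their histones while they copy their DNA, from clusters of short genes without introns. The mRNAs of these genes normally do not end in a poly-A tail. They end at a short stem-loop that the protein SLBP binds, and they are cut just after it by a complex with the U7 small nuclear RNA. Library preparation that selects poly-A tails therefore takes up little of the usual histone mRNA, and takes up the copies that carry a tail, which some of these genes make by running past the stem-loop to a later cleavage site. DICER1 is the enzyme that cuts microRNA precursors. In bulk RNA, more cells that carry a transcript and more of that transcript per cell cannot be told apart.

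The stem-loop is the shared sequence of these genes, and it is printed for the members on which the results turn, with the 16-base stem-loop in capitals and 5 bases on each side, read on the gene's strand of GRCh38 after the stop codons of GENCODE release 44.
HIST1H1C: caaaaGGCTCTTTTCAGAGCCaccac
HIST1H2AC: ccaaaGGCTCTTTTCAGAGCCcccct
HIST2H2AC: ccaaaGGCTCTTTTTAGAGCCaccca
HIST1H2BK: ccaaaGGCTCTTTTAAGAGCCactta
HIST1H2BC: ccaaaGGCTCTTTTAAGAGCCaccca
HIST1H2BH: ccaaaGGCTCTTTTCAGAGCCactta
HIST1H4I: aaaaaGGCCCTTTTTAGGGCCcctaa
HIST1H4H: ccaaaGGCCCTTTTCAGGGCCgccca
No H4 gene shared its form with a gene of another type. A stem-loop was found within 150 bases of the stop codon in 63 of the 67 protein-coding members that could be searched, in 7 distinct forms. All 14 H4 genes with a stem-loop carried one of the forms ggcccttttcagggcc (10 genes) and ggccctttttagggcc (4 genes), while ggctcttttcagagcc was the commonest form of the other types. HIST1H3E was among the 4 members without a match in that window.

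The promoters of HIST1H2BK and HIST1H4I, which are neighbours, of HIST1H4H and, as a gene that fell in TPC1, of HIST1H2BH are printed next for the 150 bases before the start, from the RefSeq table of GRCh38.p14, with the string TATAAA on the gene's strand, the string CCAAT on either strand and the octamer ATTTGCAT on either strand in capitals. These are the letters of the TATA box, the CCAAT box and the octamer element, the last of which is known from H2B promoters.
HIST1H2BK (chr6:27146859-27147008, minus strand): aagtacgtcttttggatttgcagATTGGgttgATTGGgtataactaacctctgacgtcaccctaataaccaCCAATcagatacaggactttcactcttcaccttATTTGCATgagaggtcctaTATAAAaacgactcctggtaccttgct
HIST1H4I (chr6:27139132-27139281, plus strand): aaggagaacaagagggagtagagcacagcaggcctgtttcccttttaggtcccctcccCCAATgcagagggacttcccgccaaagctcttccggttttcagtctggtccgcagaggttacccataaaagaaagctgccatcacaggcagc
HIST1H4H (chr6:26285535-26285684, minus strand): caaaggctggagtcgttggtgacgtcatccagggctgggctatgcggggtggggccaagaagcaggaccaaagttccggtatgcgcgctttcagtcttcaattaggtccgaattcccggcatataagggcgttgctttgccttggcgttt
HIST1H2BH (chr6:26251464-26251613, plus strand): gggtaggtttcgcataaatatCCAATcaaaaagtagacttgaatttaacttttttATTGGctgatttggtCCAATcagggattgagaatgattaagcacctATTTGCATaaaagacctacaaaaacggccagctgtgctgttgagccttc
HIST1H2BK and HIST1H2BH both held ATTTGCAT, and HIST1H4H held none of the 3 strings. Over the 250 bases before the start, ATTTGCAT on either strand stood in 57.1% of the 21 measured members with a promoter in the table (12 genes), in 42.6% of the 61 members with one and in 1.66% of 27305 promoters of all genes. CCAAT on either strand stood in 90.5% of the measured members and 33% of all promoters, and TATAAA on the gene's strand in 52.4% and 7.17%. None of the 3 strings contains another, and a match is a description of the sequence and not a site of binding. Head-to-head neighbours such as HIST1H2AC and HIST1H2BC share bases before their starts, so 1 stretch can count for both genes. The 12 genes with ATTTGCAT are therefore not 12 separate stretches.

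Values are normalised read counts scaled to 20 M reads a library, where M is the SI prefix mega. Of the 87 genes, 22 had a mean of at least 10 over the 18 libraries and are called measured here, 51 lay below that mean and 14 were at 0 in every library. Just inside this limit were HIST2H2AC and HIST1H3D (ENSG00000197409), each with a mean of 10.3, and just outside it HIST1H2APS2 with 9.72 and HIST2H2BC with 9.28. The depth was 11.3 to 23.2 M reads a library, so 1 read was worth 0.861 to 1.77 of these units, and a member listed at 0 could still be present below a level of 2.58 to 5.32, which 3 reads give. For 12 samples the title gives another group than the description, and the description was followed. DICER1 itself lay between 1397 and 2492 in the TPC1 control libraries and between 246 and 395 under siDicer, and in D11 between 655 and 1536 in the control libraries and between 277 and 451 under siDicer. The controls were not alike in DICER1, as every NC library exceeded every NT library of its line. The lowest NC value was 1901 in TPC1 (highest NT value 1582) and 1407 in D11 (highest NT value 1157). On the log2 scale NC exceeded NT by 0.58 in TPC1 and 0.71 in D11. Each difference had an unadjusted p under 0.05 in limma, but neither was called. The thyroid markers PAX8 (7361 to 14886), TG (32 to 124) and FOXE1 (61 to 214) were detected, while TSHR, SLC5A5 and NKX2-1 were at 0 to 2. Of the markers of other cell types, PTPRC, CD3E, PECAM1, CDH5, CALCA and CHGA did not pass 12, whereas CD68 lay between 763 and 1960, COL1A1 between 35 and 134 and PDGFRB between 12 and 167. Of the 2 fibroblast markers PDGFRB rose under siDicer in both lines (1.82 ± 0.55 and 1.60 ± 0.31 on the log2 scale) and COL1A1 did not pass the test, and of the 4 epithelial markers KRT7 rose in TPC1 (0.82 ± 0.20), while the median of the 3 tested was 0.0045 in TPC1 and -0.24 in D11. KRT18 lay at -0.39 ± 0.12 in D11 (adjusted p = 0.0297), short of the fold limit. The part of these markers in the values of the histone genes was not tested.

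The signal of the family came from few genes. The linker histone gene HIST1H1C (ENSG00000187837) and the H2B gene HIST1H2BK (ENSG00000197903) held 38.0% of the summed mean of all 87 members, the highest 4 members 59.1% and the 22 measured members 93.5%. H2B genes made up 36.0% of the sum (9 of 25 measured), H1 genes 22.9% (1 of 7), H2A genes 18.1% (4 of 22), H4 genes 15.6% (3 of 15) and H3 genes 7.39% (5 of 18). The large group HIST1 gave 93.9% of the sum with 19 of 66 genes measured. It lies on chromosome 6, apart from the pseudogenes HIST1H2APS6 and HIST1H2BPS3 on chromosome 13. HIST2 on chromosome 1 gave 5.42% with 2 of 16 measured, HIST4 on chromosome 12 consists of HIST4H4 alone and gave 0.613%, and HIST3 on chromosome 1 gave 0.0330% with none of 4 measured. Of the 7 H1 genes, HIST1H1C had a mean of 448.6, while HIST1H1A, HIST1H1B, HIST1H1D and HIST1H1E, the other somatic H1 genes of the cluster, had means of 0.111 to 4.06. HIST2H3A, HIST2H3C, HIST2H4A and HIST2H4B had means under 3, and every 100-base window of these genes occurs in more than 1 place in the genome, so reads of that length could not be placed uniquely.

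Per kb of annotated exon, the order of the members changed. With the exon lengths of GENCODE release 44, which gives HIST1H2BK only the short model that ends at the stem-loop, HIST1H2BK had the highest level per kb, 646.1, followed by HIST1H1C with 613.7, HIST1H4I (ENSG00000276180) with 419.5 and HIST1H2AC with 155.3. HIST1H4H (ENSG00000158406) and HIST1H2BC, which have long annotated models, had 55.8 and 37.0 per kb, below HIST1H2AG (69.9) and HIST1H2BH (56.6), which were far lower before division by length. The genes also differed in where their annotated models end. In GENCODE release 44 or RefSeq, a transcript model ran at least 100 bases past the stem-loop in 17 of the 63 members with a stem-loop, and 11 of these 17 (64.7%) were measured. Of the 46 members whose models end at the stem-loop, 9 (19.6%) were measured. The limit for measured was set on means not divided by length. A gene with more annotated exon could thus reach it at a lower level per kb. These shares were not compared per kb. The distance from stop codon to stem-loop had a median of 35 bases in the 20 measured members with a stem-loop and 36 bases in the 43 others. HIST1H1C and HIST1H4I were among the 9 measured members whose models end at the stem-loop, 4 and 9 bases past it, whereas the RefSeq model of HIST1H2BK runs 8073 bases past it and the GENCODE model of HIST1H4H 7522 bases, although the RefSeq model of HIST1H4H ends 5 bases past it. These annotations are later than the Ensembl release 90 that the authors counted on, so the counted exons may differ.

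**Figure D1:**
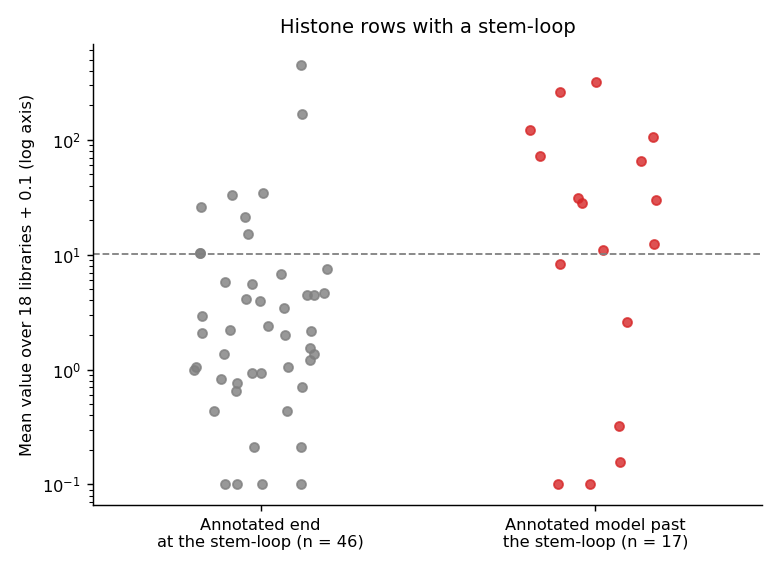
Mean normalised read count per 20 M reads over 18 libraries plus 0.1 (log axis) for the 63 clustered histone genes with a stem-loop, split by whether an annotated model runs at least 100 bases past it. Each point is 1 gene and the dashed line is the minimum mean of 10. At or above it lie 11 of the 17 genes with a longer model and 9 of the 46 without one. The means are not divided by exon length.

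The summed level of the 87 members was 1835, 1247 and 1290 in the 3 NT libraries of TPC1, 1771, 1476 and 1582 in NC, then 3036, 2028 and 2435 under siDicer. In D11 it was 2602, 1775 and 1733 in NT, 1875, 1749 and 1933 in NC, then 3284, 2207 and 2514 under siDicer. Every siDicer library of TPC1 lay above its 6 control libraries, whereas in D11 the first NT library lay above the lower pair of siDicer libraries. The first replicate was the highest in NT and siDicer of both lines. By type, the sum of the H4 genes was 195 ± 60.2 (SD, n = 3) in NT, 153 ± 15.8 in NC and 478 ± 70.9 under siDicer in TPC1, and 307 ± 28.3, 205 ± 28.3 and 560 ± 98.8 in D11. The sum of the H2B genes was 512 ± 82.2, 498 ± 55.2 and 1038 ± 204 in TPC1, and 697 ± 151, 579 ± 20.1 and 1044 ± 208 in D11. The H1 sum stayed between 396 and 440 in the TPC1 group means, and between 454 and 582 in those of D11. Since few genes carry these sums, they follow the highest members, and they were not tested.

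**Figure D2:**
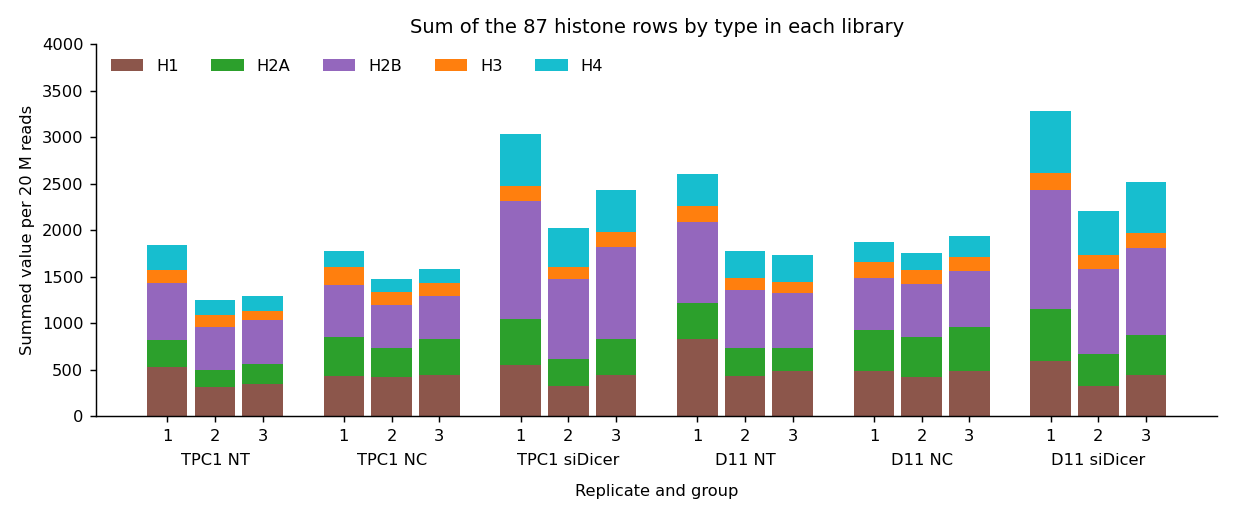
Summed normalised read count per 20 M reads (bar height) of the 87 clustered histone genes in each of the 18 libraries, stacked by histone type. The siDicer bars reach 2028 to 3036 in TPC1 and 2207 to 3284 in D11, with the largest differences from NT and NC in the H2B and H4 segments.

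The comparison of siDicer with the control group in each line addresses what knockdown of Dicer1 does to these transcripts. In TPC1, 4 of the 22 measured members rose and 2 fell, where a gene was called at a Benjamini-Hochberg adjusted p under 0.05 in limma and a fold change of at least 1.5. Among all 18475 genes tested, 3.22% were called higher and 4.16% lower. In D11, without a replicate block, 5 members rose and none fell, among 18413 genes of which 5.26% were called higher and 6.75% lower. In limma and in voom, 1 member below 0 had an unadjusted p under 0.05. With the replicate number as a block, D11 had 4 members higher and 1 lower, beside 1063 genes higher and 1380 lower in all. Without the block, HIST1H2BK, HIST1H4I, HIST1H4H and HIST1H2BC rose in both lines, HIST1H3E rose in D11, and HIST1H2BH and HIST2H2AC fell in TPC1. With the block, HIST1H2BC was not called in D11 and HIST1H2BH was called lower there. Of the 22 members, 12 had a log2 fold change above 0 in both lines and 7 below 0 in both. The median over the members was a log2 fold change of 0.50 in TPC1 and 0.37 in D11, beside -0.04 over all genes in each line. Comparisons with NT alone and NC alone share their siDicer libraries with these.

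HIST1H4H and HIST1H4I each code for histone H4, which with H3 forms the tetramer at the core of the nucleosome. HIST1H4H (chr6:26277609-26285638, minus strand) stood at 81, 41 and 48 in NT, 75, 77 and 72 in NC, then 197, 175 and 172 under siDicer in TPC1. In D11 it stood at 68, 79 and 74 in NT, 109, 90 and 108 in NC, then 275, 190 and 242 under siDicer. In both lines every siDicer library lay above every control library, with no overlap. The log2 fold change was 1.49 ± 0.23 (SE) in TPC1, a 2.82-fold difference (adjusted p = 0.00304), and 1.42 ± 0.19 in D11 (adjusted p = 0.000492). It remained called against NT alone (1.72 and 1.65) and against NC alone (1.27 and 1.18), and in each fit that left out 1 library.

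HIST1H4I (chr6:27139282-27139678, plus strand) stood at 148, 90 and 93 in NT, 59, 37 and 45 in NC, then 336, 221 and 259 under siDicer in TPC1. In D11 NT gave 249, 176 and 188, NC gave 78, 51 and 83, and siDicer gave 361, 249 and 275. The groups did not overlap in TPC1, and in D11 the lowest siDicer library had the same value as the highest NT library. This was a log2 fold change of 1.91 ± 0.38 in TPC1 (adjusted p = 0.00946) and 1.29 ± 0.42 in D11 (adjusted p = 0.0419). Its size depended on the control, because the NC libraries lay below the NT libraries. Against NT alone the log2 fold change was 1.31 ± 0.24 in TPC1 (adjusted p = 0.0271) and 0.53 ± 0.19 in D11 (adjusted p = 0.0647), and against NC alone 2.51 ± 0.23 and 2.06 ± 0.22. The call was lost in TPC1 without siDicer replicate 1 (1.75) or 3 (1.94), and in D11 without any 1 of the siDicer libraries (1.14 to 1.41) and without NC replicate 1 (1.17) or 3 (1.19). HIST4H4, the H4 gene that lies alone on chromosome 12, had a mean of 12.4 and log2 fold changes of -0.00 ± 0.27 in TPC1 and -0.48 ± 0.41 in D11, neither called.

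Histone H2B is one of the core histones, paired with H2A in the nucleosome, and 9 of its genes were measured. HIST1H2BK (chr6:27146361-27146855, minus strand) stood at 279, 163 and 208 in NT, 123, 58 and 102 in NC, then 723, 457 and 557 under siDicer in TPC1. In D11 it stood at 460, 293 and 278 in NT, 134, 92 and 133 in NC, then 734, 485 and 478 under siDicer. The siDicer libraries lay above all control libraries in both lines, in D11 by a narrow margin over the first NT library, and the NC libraries were the lowest in both. The log2 fold change was 2.03 ± 0.40 in TPC1, a 4.10-fold difference (adjusted p = 0.00946), and 1.47 ± 0.41 in D11 (adjusted p = 0.0230). Against NT alone it was 1.42 ± 0.24 (adjusted p = 0.0213) and 0.73 ± 0.22 (adjusted p = 0.0383), and against NC alone 2.65 ± 0.29 and 2.22 ± 0.21. The call was lost in TPC1 without siDicer replicate 1 (1.86) or 3 (2.05) and in D11 without any 1 of the siDicer libraries (1.27 to 1.58). Of the 100-base windows of HIST1H2BK, 22.5% occur in more than 1 place in the genome, so part of its reads may belong to other H2B genes or be missing from it.

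HIST1H2BC (chr6:26086317-26123926, minus strand) stood at 53, 67 and 62 in NT, 96, 96 and 83 in NC, then 185, 120 and 140 under siDicer in TPC1, and at 78, 65 and 70, then 95, 141 and 116, then 158, 122 and 171 in D11. In contrast to HIST1H2BK, its NC libraries lay above its NT libraries in both lines, and in D11 an NC library overlapped the siDicer group. Its log2 fold change was 0.96 ± 0.22 in TPC1 (adjusted p = 0.0174) and 0.71 ± 0.24 in D11 (adjusted p = 0.0492), and against NT alone 1.26 ± 0.21 and 1.06 ± 0.19. In D11 the call was lost with the replicate number as a block (adjusted p = 0.0590), against NC alone (0.36 ± 0.20) and without any 1 of 7 libraries, namely the NT and siDicer replicates 1 to 3 and NC replicate 1 (0.61 to 0.85). TPC1 kept no call against NC alone (0.67 ± 0.19, adjusted p = 0.0601), nor when siDicer replicate 1 (0.79) or 3 (0.99) was left out. The annotated model of HIST1H2BC spans other genes, HFE and a further H4 gene among them, whose reads cannot be told apart from its own if strand was not used in counting. In release 44, 3 genes on the opposite strand also overlap HIST1H4H, and genes on the same strand overlap HIST1H2AC, HIST1H2BH and HIST1H3E.

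HIST1H2BH (chr6:26251614-26252075, plus strand) went the other way. It stood at 36, 38 and 30 in NT, 38, 29 and 24 in NC, then 18, 22 and 12 under siDicer in TPC1, with no overlap, and at 47, 23 and 30, then 35, 16 and 29, then 13, 21 and 10 in D11, where the groups overlapped. Its log2 fold change was -0.89 ± 0.24 in TPC1 (adjusted p = 0.0340) and -0.97 ± 0.33 in D11 (adjusted p = 0.0540). With the replicate number as a block, HIST1H2BH was also called lower in D11 (adjusted p = 0.0489). In TPC1 the call was lost against NT alone (-0.99) and NC alone (-0.79) and without NT replicate 1 (-0.86) or 3 (-0.91), NC replicate 1 (-0.84) or siDicer replicate 1 (-0.94) or 3 (-0.66). HIST2H2BE, the H2B gene of the HIST2 cluster, had a mean of 72.3 and log2 fold changes of -0.28 ± 0.21 and -0.24 ± 0.25, neither called. It lies head to head with HIST2H2AC on chromosome 1 (chr1:149884459-149886682, minus strand).

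**Figure D3:**
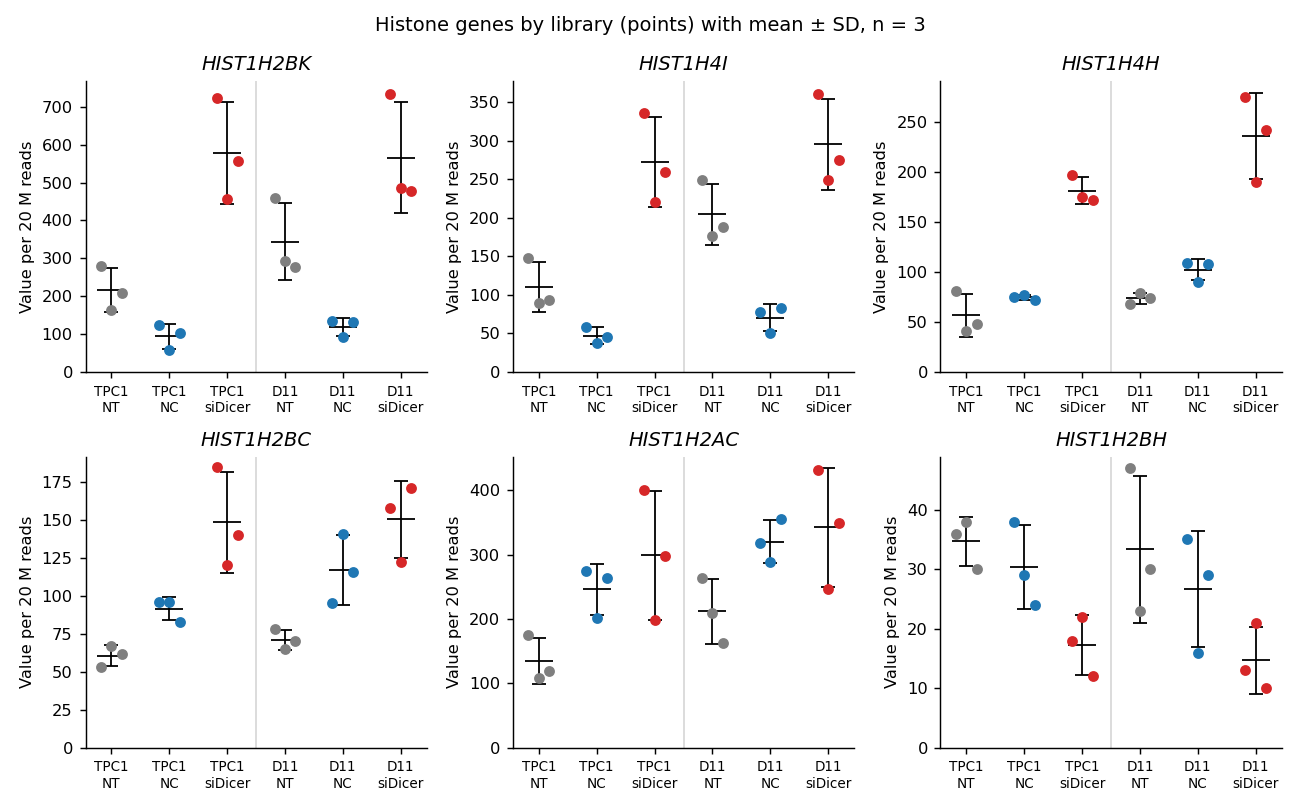
Normalised read count per 20 M reads of HIST1H2BK, HIST1H4I, HIST1H4H, HIST1H2BC, HIST1H2AC and HIST1H2BH in each library of the 6 groups; points are libraries, and bars give the mean ± SD of 3. The siDicer points of HIST1H4H (172 to 275) lie above every control point of their line, those of HIST1H2BH (10 to 22) lie low, and the NC points of HIST1H2BK (58 to 134) and HIST1H4I (37 to 83) lie below their NT points.

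Histone H2A is the partner of H2B, and 4 of its genes were measured. HIST1H2AC (chr6:26124145-26139116, plus strand), which held most of the H2A signal, stood at 175, 109 and 119 in NT, 274, 201 and 263 in NC, then 400, 199 and 298 under siDicer in TPC1. In D11 it stood at 264, 209 and 163, then 318, 288 and 355, then 432, 247 and 349. Its siDicer libraries overlapped the NC libraries in both lines. HIST1H2AC had a log2 fold change of 0.68 ± 0.32 in TPC1 (adjusted p = 0.175) and 0.37 ± 0.24 in D11 (adjusted p = 0.283), and against NT alone 1.12 ± 0.28 (adjusted p = 0.0522) and 0.68 ± 0.23 (adjusted p = 0.0539). Against NC alone it was 0.24 ± 0.25 (adjusted p = 0.587) and 0.07 ± 0.19 (adjusted p = 0.857). HIST1H2AC lies head to head with HIST1H2BC, and the 150 bases before their starts overlap, yet HIST1H2BC passed the test and HIST1H2AC did not. A difference between the genes was not tested.

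HIST2H2AC (chr1:149886918-149887411, plus strand) stood at 15, 9 and 14 in NT, 20, 10 and 14 in NC, then 7, 3 and 4 under siDicer in TPC1, and at 12, 5 and 7, then 12, 21 and 15, then 4, 9 and 4 in D11. These values stand for 2 to 14 reads a library. In TPC1 the gene passed the filter on low values through control libraries alone, where it was higher. Without that filter it was also called lower. The calls of HIST1H2BH in TPC1 and of HIST1H4I, HIST1H2BC and HIST1H3E in D11 were lost without the filter. The groups of HIST2H2AC did not overlap in TPC1 and overlapped in D11. Its log2 fold changes were -1.39 ± 0.33 (adjusted p = 0.0208) and -0.92 ± 0.44 (adjusted p = 0.158). In TPC1 the gene was no longer called against NC alone (-1.48) or when siDicer replicate 2 (-1.17) or 3 (-1.33) was left out, and against NT alone the gene did not pass the filter on low values. Among its 100-base windows, 12.7% occur elsewhere in the genome. HIST1H2AG, with values of 17 to 54, and HIST1H2AE, with values of 8 to 23, were not called in either line.

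The H3 genes had low levels. HIST1H3E (chr6:26224199-26227473, plus strand) stood at 41, 40 and 21 in NT, 40, 49 and 34 in NC, then 56, 49 and 61 under siDicer in TPC1. In D11 it stood at 37, 31 and 28 in NT, 51, 47 and 46 in NC, then 65, 62 and 61 under siDicer. In D11 the siDicer libraries lay above all controls, and in TPC1 the lowest siDicer library equalled the highest NC library. HIST1H3E had a log2 fold change of 0.59 ± 0.25 in TPC1 (adjusted p = 0.134) and 0.67 ± 0.22 in D11 (adjusted p = 0.0462), and against NT alone 0.74 ± 0.30 (adjusted p = 0.153) and 0.96 ± 0.22 (adjusted p = 0.0111). The call in D11 was lost against NC alone (0.38) and without any 1 of 7 libraries, the NT and siDicer replicates 1 to 3 and NC replicate 3 (0.57 to 0.71). HIST1H3H, with values of 14 to 45, and HIST1H3D (ENSG00000282988), with values of 12 to 31, were not called in either line.

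HIST1H1C (chr6:26055740-26056470, minus strand), the only measured gene of the linker histone H1, which binds DNA between nucleosomes, had the highest mean level before division by length and did not pass the test. It stood at 515, 297 and 325 in NT, 424, 417 and 428 in NC, then 533, 313 and 433 under siDicer in TPC1. In D11 it stood at 814, 412 and 480, then 474, 407 and 472, then 566, 328 and 437. The groups overlapped throughout. The log2 fold change was 0.08 ± 0.20 in TPC1 (adjusted p = 0.830) and -0.19 ± 0.22 in D11 (adjusted p = 0.560). It was 0.18 ± 0.26 and -0.33 ± 0.26 against NT alone, and -0.02 ± 0.18 and -0.06 ± 0.18 against NC alone, with no call. The spread between replicates leaves room for moderate changes in either direction.

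Set against NT alone, 5 members were called higher and none lower in TPC1, where 3.23% of all genes were called higher and 2.74% lower. In D11, 4 were called higher and 1 lower, among 8.52% and 8.63% of all genes. Against NC alone, 3 members were called higher and none lower in each line, and these were HIST1H2BK, HIST1H4I and HIST1H4H. The share of all genes called against NC alone was 2.84% higher and 3.09% lower in TPC1, and 3.93% and 4.93% in D11. HIST1H2BG, an H2B gene, was the fifth gene against NT alone in TPC1, with a log2 fold change of 1.43 ± 0.32 (adjusted p = 0.0415); it is named after its values were seen. Against NC alone HIST1H2BG lay at 0.15 ± 0.21 (adjusted p = 0.692), and its NC libraries lay at 1.28 ± 0.33 against NT (adjusted p = 0.209). Of the members called higher, HIST1H4H, HIST1H2BK and HIST1H2BC have an annotated model that runs past the stem-loop, HIST1H4I and HIST1H2BG do not, and HIST1H3E had no stem-loop in the window. Both genes that fell in TPC1, HIST1H2BH and HIST2H2AC, end at the stem-loop in both annotations. Over the 11 measured members with a longer model, the median log2 fold change against the joined control was 0.62 in TPC1 and 0.37 in D11, and over the 9 without one -0.20 and -0.19. Against NT alone the medians over those tested were 0.94 and 0.58 with a longer model and 0.27 and 0.07 without. Against NC alone they were 0.24 and 0.065 with a longer model and -0.36 and -0.055 without, so that the size and, without a longer model, the sign depended on the control. The difference between these sets was not tested.

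**Figure D4:**
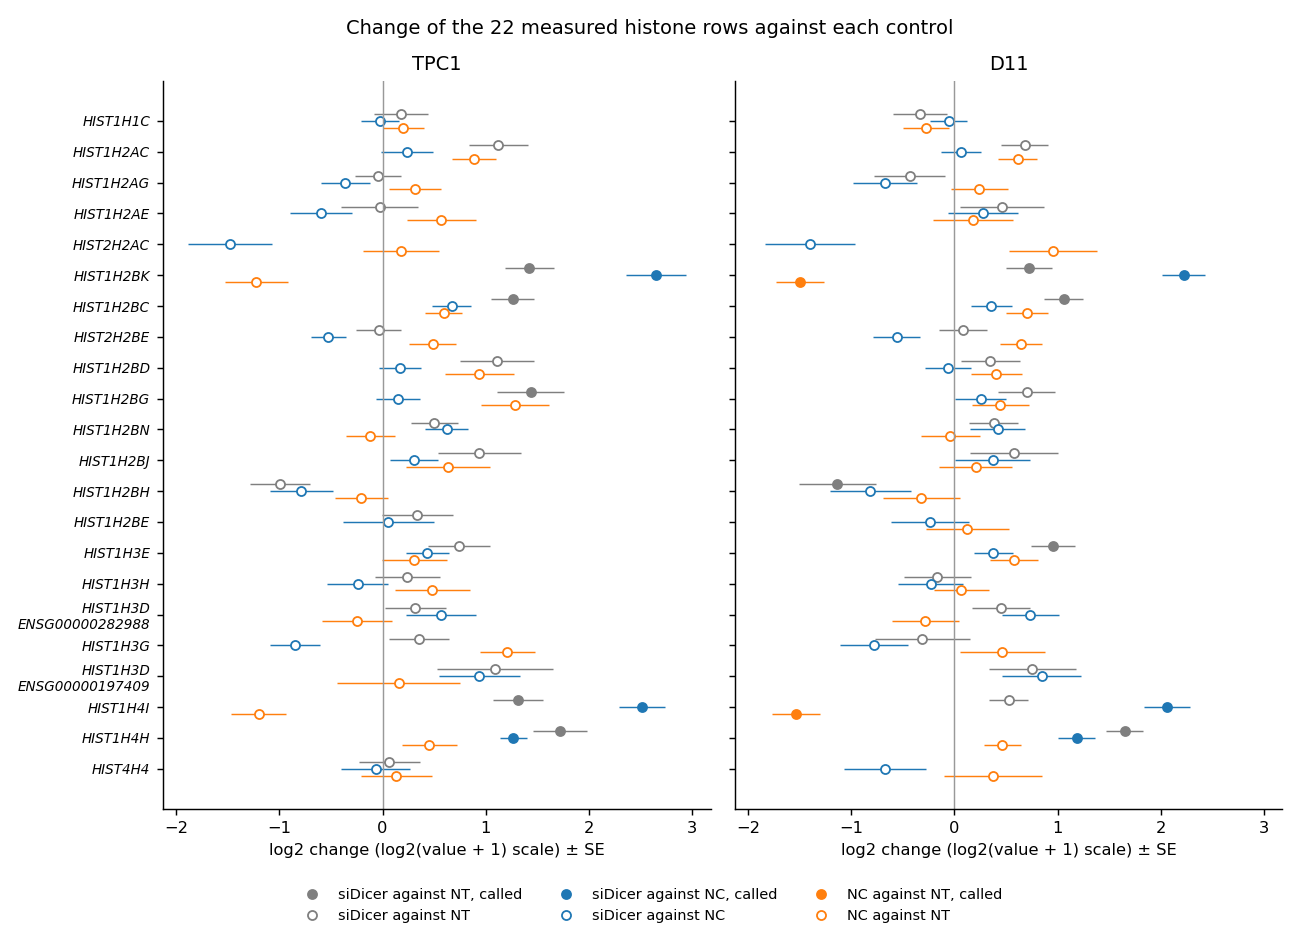
Log2 fold change (x axis) of the 22 measured clustered histone genes in TPC1 and D11 for siDicer against NT, siDicer against NC, and NC against NT; filled points passed the test. HIST1H2BK and HIST1H4I lie far apart by control (2.65 against NC and 1.42 against NT for HIST1H2BK in TPC1), whereas the HIST1H4H points lie between 1.18 and 1.72.

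The comparison of NC with NT shows what transfection with a siRNA that has no intended target did to these genes. In TPC1 no member passed the test in voom or in the limma fit of this line without a replicate block. In that limma fit 7 of 21 had an unadjusted p under 0.05, 5 above 0 and 2 below. Of all genes 0.0333% were called higher and 0.0777% lower, and 2003 had an unadjusted p under 0.05. In D11, HIST1H2BK and HIST1H4I fell, with 0.15% of all genes called higher and 0.2% lower. The log2 fold change of NC against NT was -1.50 ± 0.23 for HIST1H2BK (adjusted p = 0.0420) and -1.53 ± 0.23 for HIST1H4I (adjusted p = 0.0380) in D11. In TPC1 it was -1.22 ± 0.31 (adjusted p = 0.198) and -1.20 ± 0.27 (adjusted p = 0.154). In both genes and both lines every NC library lay below every NT library. DICER1 went the other way, at 0.58 in TPC1 and 0.71 in D11, neither called. How far this bears on the histone genes was not tested. Of the members, 14 lay above 0 in both lines and 5 below 0 in both, and the medians over the 21 tested in each line were 0.32 in TPC1 and 0.24 in D11 beside 0.00 and 0.02 over all genes. In D11, with the replicate number as a block, both genes were still called lower, and the calls over all genes went from 27 higher and 36 lower to 195 and 120. In TPC1 the block gave both genes as lower and HIST1H2AC, HIST1H2BG and HIST1H3G as higher, beside 300 genes higher and 265 lower in all. The replicate numbers pair the TPC1 libraries less clearly. Both calls in D11 were lost without NT replicate 3 or without any 1 of the NC libraries (-1.32 to -1.66).

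HIST1H2BK and HIST1H4I are neighbours. The RefSeq span of HIST1H2BK (chr6:27138293-27146858, minus strand) contains HIST1H4I (chr6:27139282-27139678, plus strand) completely, on the opposite strand, while the GENCODE model of HIST1H2BK ends before it. The ratio of HIST1H4I to HIST1H2BK was 0.441 to 0.676 over the 18 libraries, with a median of 0.536. The group means of the ratio were 0.510 in NT, 0.520 in NC and 0.471 under siDicer in TPC1, and 0.606, 0.587 and 0.527 in D11. The ratio thus varied by less than either gene, whose levels differed several-fold between NC and siDicer. Whether counting used the strand is not stated in the sources used here, so reads from the extended transcript of HIST1H2BK and from HIST1H4I cannot be told apart, and the pair may not be separate measurements.

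**Figure D5:**
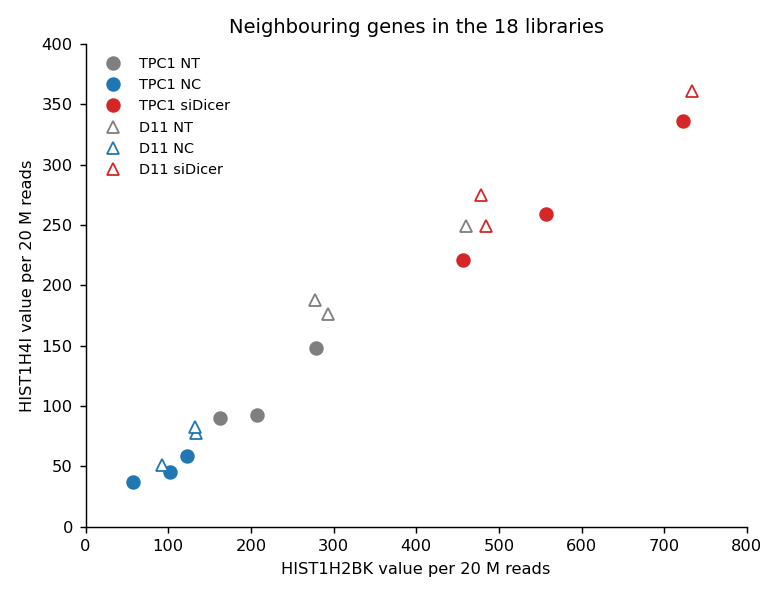
Normalised read count per 20 M reads of HIST1H4I (y axis) against that of its neighbour HIST1H2BK (x axis) in the 18 libraries, marked by group. The points lie along a band in which HIST1H4I is 0.441 to 0.676 of HIST1H2BK, from the NC libraries at the low end to the siDicer libraries at the high end.

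The comparison of D11 with TPC1 in the 12 control libraries addresses the loss of 1 Dicer1 allele without knockdown. No measured member passed the test in limma on these 12 libraries without a replicate block. There 0.144% of 18814 genes were called higher in D11 and 0.872% lower. An unadjusted p under 0.05 was found for 1853 genes, 7 of the members among them, all above 0. HIST1H4I came closest, at a log2 fold change of 0.74 ± 0.18 (adjusted p = 0.0770). With voom 1 member was called higher, HIST1H4I. The same gene was called higher in limma with all 18 libraries in the fit, and with the replicate number as a block (adjusted p = 0.00243). Here the block joined libraries of the same number across the lines. Whether the numbers pair libraries across lines was not checked. Over all genes the block gave 67 higher and 318 lower. HIST1H2BK lay at 0.52 ± 0.20 and HIST1H2AC at 0.52 ± 0.15. In all, 18 members lay above 0 and 4 below, with a median of 0.15 beside -0.007 over all genes. The difference between the siDicer effect in D11 and that in TPC1 was tested over all 18 libraries. Of 19181 genes, 0% were called higher and 0% lower in limma, with 133 genes at an unadjusted p under 0.05 and none of the members, in limma or in voom. For HIST1H2BK the difference, D11 minus TPC1, was -0.56 ± 0.63 on the log2 scale, for HIST1H4I -0.62 ± 0.62, for HIST1H4H -0.08 ± 0.30 and for HIST1H2BC -0.25 ± 0.34. The errors leave room for a difference in either direction.

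Genes that work with histones were described from lists, with calls for siDicer against the control group, beside which the shares of all tested genes called higher were 3.22% (TPC1) and 5.26% (D11), those called lower were 4.16% and 6.75%, and the all-gene median was -0.04 in each line. The variant histones, most of which are made outside DNA replication from polyadenylated mRNA, had no gene above 0 with an unadjusted p under 0.05 in limma. Of 11 tested, 4 fell in TPC1 and 6 in D11, with medians of -0.53 and -0.78. CENPA, the H3 variant of centromeres, had log2 fold changes of -0.53 ± 0.11 in TPC1, short of the fold limit, and -0.82 ± 0.12 in D11 (adjusted p = 0.000952). H2AFZ, the H2A variant found at promoters, fell by 0.61 in TPC1 and by 0.78 in D11 on the log2 scale. H1F0, the linker histone of resting cells, fell by 1.89 and 1.93 on the log2 scale, and was also lower in D11 than in TPC1 by the test of the control libraries (-1.19 ± 0.25). H2AFJ and H1FX fell in both lines as well.

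Among the factors that form the stem-loop end or degrade histone mRNA, changes were small. None of the 23 genes of this list was called in either line by limma, with medians of -0.14 in TPC1 and -0.23 in D11. At an adjusted p under 0.05 lay 1 above and 3 below 0 in TPC1, and 1 above and 7 below 0 in D11. None of these reached 1.5-fold. The share of all genes at that adjusted p without the fold limit is not given. These counts therefore do not show whether the list differs from genes in general. SLBP, which binds the stem-loop, had log2 fold changes of -0.13 and -0.25, SNRPB, a shared component of small nuclear ribonucleoproteins, -0.36 and -0.52, ZNF473, a zinc finger protein of the U7 complex, 0.42 and 0.50, and ERI1, an exonuclease that trims histone mRNA, -0.51 and -0.44. Of the 10 genes of histone gene transcription, none was called in TPC1 and CCNE2, a cyclin that activates CDK2, was lower in D11 (-0.84 ± 0.13, adjusted p = 0.00108). NPAT, the coactivator of the clusters, had log2 fold changes of -0.08 and 0.10, and HINFP, which binds H4 promoters, 0.37 and 0.43. Of 20 histone chaperones, 2 fell in TPC1, and in D11 3 fell and 1 rose, with medians of -0.29 and -0.34. SUPT16H, a subunit of the FACT complex, fell in both lines (-0.72 and -0.75), while its partner SSRP1 lay at -0.45 and -0.58, neither called.

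Genes of DNA replication are active in the same phase of the cell cycle as the clustered histone genes. Of 20 genes, 3 fell in TPC1 and 11 in D11, none had a log2 fold change above 0 with an unadjusted p under 0.05 in limma, and the medians were -0.40 and -0.59. RRM1, a subunit of the enzyme that makes deoxynucleotides, fell in both lines, with log2 fold changes of -0.60 ± 0.13 and -0.68 ± 0.11. RRM2, the other subunit, lay at -0.77 ± 0.24 in TPC1, not called, and fell in D11 (-0.94 ± 0.13). MCM3, a subunit of the replicative helicase, lay at -0.46 ± 0.14, not called, and -0.59 ± 0.10, called. In NC against NT no gene of these lists was called in either line by limma. Of the 20 DNA replication genes, 1 in TPC1 and 9 in D11 lay below 0 with an unadjusted p under 0.05. Over all genes, 2003 of 18008 in TPC1 and 2447 of 17992 in D11 had such a p in either direction. The part of DNA replication in the levels of the clustered histone genes was not tested. RNAs that lack a poly-A tail were listed as a rough guide to what entered the libraries without one. Whether they enter as histone mRNA without a tail does was not tested. Of the 17 RNAs of this list, 2 passed the filter in the siDicer comparisons and neither had an unadjusted p under 0.05 in limma. RN7SL1, an RNA of the signal recognition particle, lay between 25 and 71 and RN7SL2 between 11 and 39, and the other 15 did not pass 17 in any library. Their part in the levels of the members was not tested.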

How the data were processed

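RNA was sequenced from 18 libraries, 3 of each of 6 groups, prepared with the TruSeq Stranded mRNA kit. As the methods state, the authors used STAR 2.5.3a on GRCh38 for paired-end reads and HTSeq 0.9.1 with Ensembl release 90 for counting, brought libraries to a common 20 M aligned reads (M for mega) and tested with edgeR. The deposited table holds 58302 genes, and its values are a normalised score (reads scaled and rounded up), not read counts. Depth was 11.3 to 23.2 M reads a library, read from the steps of low values; in the 16 libraries where 1 read is worth over 1 unit, 100% of values up to 300 came back as whole reads. The floor of 3 reads covers counting error only.

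Values were taken as log2(value + 1), genes were kept where 3 or more libraries of a fit reached 10, and limma 3.58.1 in R 4.3.3 was run with a trend in eBayes, adjusting p-values by Benjamini-Hochberg over all genes kept. Changes of low genes are understated on this scale. Calls needed a fold change of 1.5 or more at an adjusted p under 0.05. The steps were tested on simulated data. The comparison of D11 with TPC1 had transfection as a term, and the difference between lines was an interaction over 18 libraries.

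The members, the gene lists and the tests were chosen with earlier results of these data known. Named were, per histone type, the 3 measured members with the highest mean; the measured members of HIST2, HIST3 and HIST4; up to 5 members called each way per comparison; DICER1; and per list the 3 genes with the smallest adjusted p in D11. Genes given beyond this rule (SLBP, NPAT, other H1 and HIST2 genes, members near the limit, and markers) were added for their role or after their values were seen. Some markers are not reported here. Positions, exon lengths and stem-loops come from GENCODE release 44 on GRCh38, in which 80 of the 87 identifiers were found, and promoters and further gene spans from RefSeq by symbol.

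Groups came from the sample descriptions. In D11, libraries with the same replicate number deviated together in 9 of 9 pairs (correlation 0.108 to 0.504), and were taken as paired. The labels leave unsaid what a number marks. The main fits had no replicate block, and the fits with one are given beside them. Alternatives were scaling by TMM or RLE, no filter on low values, pseudocounts of 0.1 and 10, no fold minimum, a mean of at least 100, a replicate block, voom on recovered reads, all 18 libraries in 1 fit, groups from the titles, NT or NC alone as control, and leaving out each library.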

Additional observations from a re-analysis of the deposited data

Results flagged for a closer look

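In groups of 6 control libraries, 4 of the 44 sets of values (22 measured members in 2 lines) had 1 library far from the others by Dixon's test, where chance gives about 1 in 20. HIST1H1C stood at 814 in D11 NT replicate 1 and at 407 to 480 in the other D11 control libraries. HIST1H2AG stood at 54 in TPC1 NC replicate 1 and at 31 to 38 in the others, and HIST4H4 at 18 in the same library and 9 to 12 in the others. HIST1H2BE stood at 22 in TPC1 NC replicate 2 and at 7 to 12 in the others. None of these genes was called in a comparison.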

How the results depend on the processing

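HIST1H4H was called higher in both lines under all 20 alternatives other than the groups from the titles (log2 fold change 1.27 to 1.72 in TPC1 and 1.18 to 1.65 in D11). With groups from the titles, no member was called higher or lower in TPC1 (0 and 0), none higher in D11 (0) and none lower in NC against NT in D11 (0). The medians were then -0.15 and -0.12 for siDicer in TPC1 and D11, -0.42 and -0.43 for NC against NT, and 0.012 for the difference between lines, and the log2 fold change reversed for HIST1H4H (-0.15), HIST1H4I (-0.15), HIST1H2BC (-0.080) and HIST2H2AC (0.016) in TPC1 and for HIST1H2BK (-0.15) and HIST1H3E (-0.14) in D11. DICER1 separates the groups of the descriptions and not those of the titles.

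The members called higher and lower for siDicer were 4 and 2 in TPC1 and 5 and 0 in D11. With all 18 libraries in the fit they were 7 and 2 in TPC1, and 1 was called lower in D11. Without a filter 1 was called lower in TPC1, where HIST1H2BH was lost. In D11 2 were then called higher, and HIST1H4I, HIST1H2BC and HIST1H3E were lost. With NT alone 0 were lower in TPC1 and 1 in D11, and with NC alone 0 were lower in TPC1, 3 higher in D11, and the medians were 0.16 in both lines. HIST1H3E in D11 was not called with a pseudocount of 10 (0.56). With voom on recovered reads the members called for siDicer were again 4 and 2 in TPC1 and 5 and 0 in D11. In NC against NT in D11, 2 members were called lower, 0 without a filter and 1 with voom. In NC against NT in TPC1, with all 18 libraries 1 was higher and 2 lower. In D11 against TPC1, 1 member was called higher with voom and 1 with all 18 libraries. A mean of at least 100 left 6 members. Apart from NT alone, NC alone and the replicate block, the shares of all genes called in these alternatives are not given. This holds for the fits without 1 library too. These counts therefore do not show whether the members differ from genes in general.

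With the replicate number as a block, 1 member was called lower for siDicer in D11 and 1 higher in D11 against TPC1, HIST1H4I. In D11 against TPC1 the block joined the same numbers across lines, a pairing that was not checked. In TPC1 the numbers pair the libraries less clearly, in 8 of 9 pairs (correlation 0.0994 to 0.542); there the block gave 3 members higher and 2 lower in NC against NT, where none was called without it, and over all genes 300 higher and 265 lower. It changed no other count of members by over 1.5 times.

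Leaving out 1 library gave 1 to 5 members higher and 0 to 2 lower for siDicer in TPC1, 1 to 5 higher and 0 to 1 lower in D11 with a median of 0.12 to 0.41, 0 to 2 lower in NC against NT in D11 with a median of 0.12 to 0.48, and 0 to 1 higher in D11 against TPC1. The cause of these shifts was not tested. Levels near 10 rest on few reads, so changes of the low members were not detectable at this depth unless large.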
